A study of Mus musculus with 3 samples.

Results

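The genes of major histocompatibility complex (MHC) class II and their transactivator *Ciita* were followed through 3 single-cell RNA libraries. The members were taken by symbol from the gene lists of the files: the classical chains *H2-Aa*, *H2-Ab1* and *H2-Eb1*, the invariant chain *Cd74*, the DM genes *H2-DMa*, *H2-DMb1* and *H2-DMb2*, the DO genes *H2-Oa* and *H2-Ob*, and *Ciita*. All 10 were present, among 31053 mouse genes. Co-Mac were bone marrow cells of C57/BL6 mice grown with GM-CSF (granulocyte-macrophage colony-stimulating factor) for 7 days and then left without treatment, and VD-Mac were cells grown the same way that received 1,25-dihydroxycholecalciferol (VD3), the active form of vitamin D3, at 1 µM on day 7 for 24 hours. hSTSG were cells taken on day 14 from human split-thickness skin placed under the skin of C57BL/6J mice, with 5 mice pooled and no map from cells to mice. Only mouse genes were counted. Each group was 1 library, so no test and no p-value can be given, cells were not treated as replicates, and a difference between Co-Mac and VD-Mac cannot be told apart from a difference between the dishes or libraries.

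Class II molecules show peptides from taken-up protein to CD4+ T cells. An alpha and a beta chain pair in the endoplasmic reticulum and are held by the invariant chain, which blocks the groove and guides them to the endosome. There the DM protein exchanges the last piece of the invariant chain for peptide, and DO binds DM and restrains it. *Ciita* binds no DNA itself: it is recruited to conserved X and Y boxes in the promoters of these genes and switches them on together. Mature dendritic cells are known for abundant class II at the cell surface and reduced new synthesis, while macrophages raise class II mainly after interferon gamma.

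On the mouse assembly GRCm38, 8 of the 10 members lay on chromosome 17 within 224335 bases, from 34092340 to 34316674. *Ciita* lay at chr16:10480059-10528418 and *Cd74* on a further chromosome. RefSeq promoter sequences (assembly GRCm38.p6, from 250 bases before to 50 after a start) were held for 7 members, with 8 promoters between them because *H2-DMa* had 2 starts. *H2-Ab1*, *Cd74* and *Ciita* had no entry. The letters ATTGG (the core of the Y box) and AACNNATG (part of the X box) were searched on both strands, and the X letters were chosen after these sequences had been seen. ATTGG stood on the sense strand in 7 of the 8 promoters and in 22.1% of all 32851 promoters in the table, and on the antisense strand in 1 of the 8 and in 21.1% of all. The X letters stood on the sense strand in 4 of the 8 and in 4.50% of all, and on the antisense strand in 0 of the 8 and in 4.64% of all. The X letters followed by ATTGG after 8 to 30 bases were found in 34 of the 32851 promoters on the sense strand and in 25 on the antisense strand, and 4 of those 34 belonged to members. The motifs do not overlap at this spacing. These stretches are shown because they hold the letters shared by genes whose levels did not move alike, with the matches in capitals and each sequence read in the direction of its gene.
H2-Eb1 (chr17:34305753-34305837, plus strand): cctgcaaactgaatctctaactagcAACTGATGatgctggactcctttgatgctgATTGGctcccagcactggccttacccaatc
H2-DMb1 (chr17:34153075-34153159, plus strand): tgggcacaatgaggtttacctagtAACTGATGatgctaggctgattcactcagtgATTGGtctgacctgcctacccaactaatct
H2-DMb2 (chr17:34145104-34145188, plus strand): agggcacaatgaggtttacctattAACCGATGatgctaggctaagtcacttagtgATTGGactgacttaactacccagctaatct
H2-Ob (chr17:34238793-34238877, plus strand): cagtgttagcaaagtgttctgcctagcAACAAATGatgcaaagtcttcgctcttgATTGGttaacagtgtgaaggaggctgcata
H2-Aa (chr17:34287842-34287926, minus strand): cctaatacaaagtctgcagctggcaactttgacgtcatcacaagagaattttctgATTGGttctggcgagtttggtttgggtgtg
H2-Oa (chr17:34092281-34092365, plus strand): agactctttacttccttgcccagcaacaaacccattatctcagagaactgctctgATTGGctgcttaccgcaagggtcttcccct
Between the X letters and ATTGG lay 22 bases in *H2-Eb1*, 23 in *H2-DMb1* and *H2-DMb2*, and 20 in *H2-Ob*. ATTGG began 59, 61, 90 and 57 bases before the start in these 4 genes, 48 in *H2-Aa* and 43 in *H2-Oa*. The seventh match lay farther off, 198 bases before one start of *H2-DMa*, without the X letters, and the other *H2-DMa* promoter had neither on the sense strand, so neither is shown. A match is a run of letters and not a measured site.

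After filtering, 7257, 8825 and 2144 cells remained in Co-Mac, VD-Mac and hSTSG, with 132574308, 116461484 and 22646544 unique molecular identifiers (UMIs, which count captured RNA molecules) and medians of 15804, 12089 and 6637.5 per cell. Levels are counts per 1000000 UMIs of the summed cells (CPM), with exact 95% Poisson intervals that cover counting error only. They count 3′ ends and are not scaled by gene length, so the level of one gene is not compared with that of another. Cells were gated by how many genes of a marker list were on, meaning at 1 UMI per 10000 or more, and cells that passed several gates were left out. The cultures are labelled macrophages, yet the largest gate held dendritic-like cells: 2963 cells (40.8%) of Co-Mac and 3742 (42.4%) of VD-Mac, against 1534 (21.1%) and 1371 (15.5%) in the macrophage-like gate. In the graft these gates held 76 (3.54%) and 855 (39.9%) cells. Nearly all dendritic-like cells of the cultures were of the mature kind (2824 and 3565 cells). *Ccr7*, the receptor that guides mature dendritic cells to lymph nodes, was on in 98.0% and 98.9% of these. It is among the 5 genes that set the mature gate, of which 3 were needed, so this share follows in part from the gate. A small gate with cDC1 genes (conventional type 1 dendritic cells) held 66, 56 and 18 cells. In the cultures it rested on *Itgae*, *Wdfy4* and *Clec9a*, while the defining markers *Xcr1* and *Cadm1* were on in at most 4.55% of its cells, against 33.3% in the graft. The treatment showed in *Cyp24a1*, the enzyme that breaks down VD3, which had 0 UMIs in the dendritic gate of Co-Mac and stood at 66.9 CPM in that of VD-Mac, and had 1 UMI against 625 CPM in the macrophage gate.

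**Figure D1:**
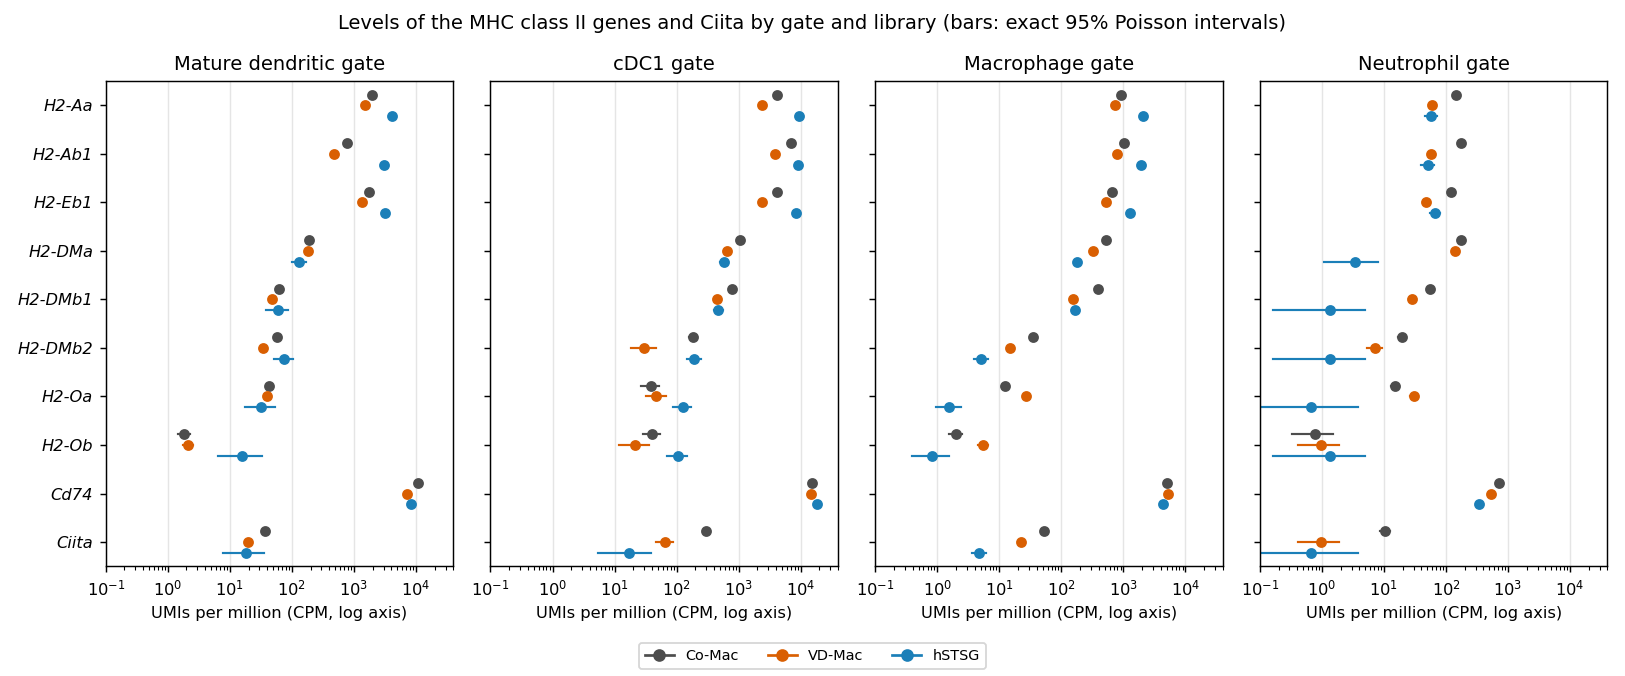
Level of each member (rows; CPM, log axis) in the mature dendritic, cDC1, macrophage and neutrophil gates of the 3 libraries, with exact 95% Poisson intervals of counting error. In the neutrophil gate of Co-Mac H2-DMa, at 175, was near its mature dendritic level of 185, while H2-Aa was at 143 against 1926.

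The classical chain genes form the peptide-binding dimers, I-A from *H2-Aa* and *H2-Ab1* and I-E with *H2-Eb1*. In the mature dendritic gate *H2-Aa* stood at 1926 CPM in Co-Mac, 1529.8 in VD-Mac and 4116 in hSTSG. *H2-Ab1* stood at 781, 474 and 3022 CPM, and *H2-Eb1* at 1777, 1372 and 3142. All 3 genes were thus highest in the graft and lowest after VD3 in this gate. The cDC1 gate was higher still, at 4228, 2373 and 9407 CPM for *H2-Aa* and 7014, 3861 and 9181 for *H2-Ab1*. The macrophage gate held *H2-Aa* at 921, 722 and 2078 CPM. *H2-Ab1* there was 1017, 800.4 and 1921 CPM, so in the cultures it was not below that of the dendritic gate as a whole (966 in Co-Mac and 545 in VD-Mac). *H2-Eb1* stood at 661, 525 and 1258 CPM. For background, the neutrophil-like gate, whose cells should carry little class II, held *H2-Aa* at 143, 59.2 and 58.2 CPM, *H2-Ab1* at 177, 58.0 and 50.7 and *H2-Eb1* at 119, 47.0 and 67.0.

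The balance of the 2 I-A chains differed between gates. For each 100 *H2-Aa* UMIs, *H2-Ab1* had 40.6 (95% interval 40.1 to 41.1) in the mature dendritic gate of Co-Mac and 31.01 (30.6 to 31.4) in that of VD-Mac. The cDC1 gate held 166 and 162.7, and the macrophage gate 110.4 and 110.9. Mature dendritic-like cells thus had the fewest *H2-Ab1* UMIs for their *H2-Aa* among these 3 gates. Between the cultures the ratio moved by −0.39 on the log2 scale in the mature gate (−0.41 to −0.36), against −0.03 (−0.13 to 0.08) in the cDC1 gate and 0.01 (−0.03 to 0.04) in the macrophage gate. In the graft the ratio was 73.4 in the mature, 97.6 in the cDC1 and 92.5 in the macrophage gate.

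VD-Mac was lower than Co-Mac for the classical genes in the dendritic, cDC1 and macrophage gates, in each by less than 2-fold. Over the whole dendritic gate the log2 ratio of VD-Mac to Co-Mac was −0.35 for *H2-Aa*, −0.83 for *H2-Ab1* and −0.40 for *H2-Eb1*. Ratios in the cDC1 gate were −0.83, −0.86 and −0.76. Those of the macrophage gate were −0.35, −0.35 and −0.33, alike for the 3 genes. The median over all genes tested was 0.02 in the dendritic and −0.07 in the macrophage gate. A gene was called where the libraries differed at least 2-fold and the higher one reached 10 CPM. Of all genes tested, 3.17% of 6902 were called lower in the dendritic gate and 5.51% of 7779 in the macrophage gate, and no classical gene was. In the neutrophil gate, by contrast, all 3 fell, *H2-Aa* by 1.27, *H2-Ab1* by 1.61 and *H2-Eb1* by 1.34. With *H2-DMb2* and *Ciita*, 5 of 9 members were called lower there, where 5.34% of 7675 genes were, and 1 higher, *H2-Oa*, where 3.44% were. Cells that passed no gate, which were shallow with median depths of 4575.5 and 2305 UMIs, had 6 of 9 members called lower, where 5.41% of 7776 genes were, and 1 higher, *H2-Oa*, where 2.97% were.

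The macrophage gate was made up differently in the 2 cultures, and these values move with its results. Cells with monocyte genes on numbered 487 in Co-Mac and 3 in VD-Mac. The 15 dendritic markers summed to 4496 CPM in the macrophage gate of Co-Mac and 1670.2 in that of VD-Mac, or 148 and 132 without the chemokine *Ccl17*, and the 13 macrophage markers to 2573 and 4597. All markers of both lists had UMIs in both cultures. In the dendritic gate the same 15 dendritic markers summed to 8004 CPM in Co-Mac and 5857 in VD-Mac, or 5528 and 4482 without *Ccl17*. Over all kept cells *Ccl17* fell from 3078 to 1358 CPM and the dendritic marker *Il4i1* rose from 211 to 524. Macrophage-like cells with *Trem2* on, a lipid receptor, numbered 891 and 1287. *Trem2* itself rose after VD3, from 157 to 343 CPM over all kept cells, and the macrophage markers *Mrc1*, *Fcgr1*, *Apoe* and *Cd68* fell by 2.16, 1.93, 1.53 and 1.17 on the log2 scale, so which cells a gate or split takes in can differ between the cultures. Among *Trem2*-on cells alone the classical genes were lower in VD-Mac by more, with log2 ratios of −0.71, −0.71 and −0.78. Among cycling cells of the gate (570 and 597 cells) they were 0.07, 0.01 and 0.19, so the direction of the classical genes in the macrophage gate did not hold there, and among cells that were not cycling −0.72, −0.67 and −0.74. Both splits were chosen after the data were seen.

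**Figure D2:**
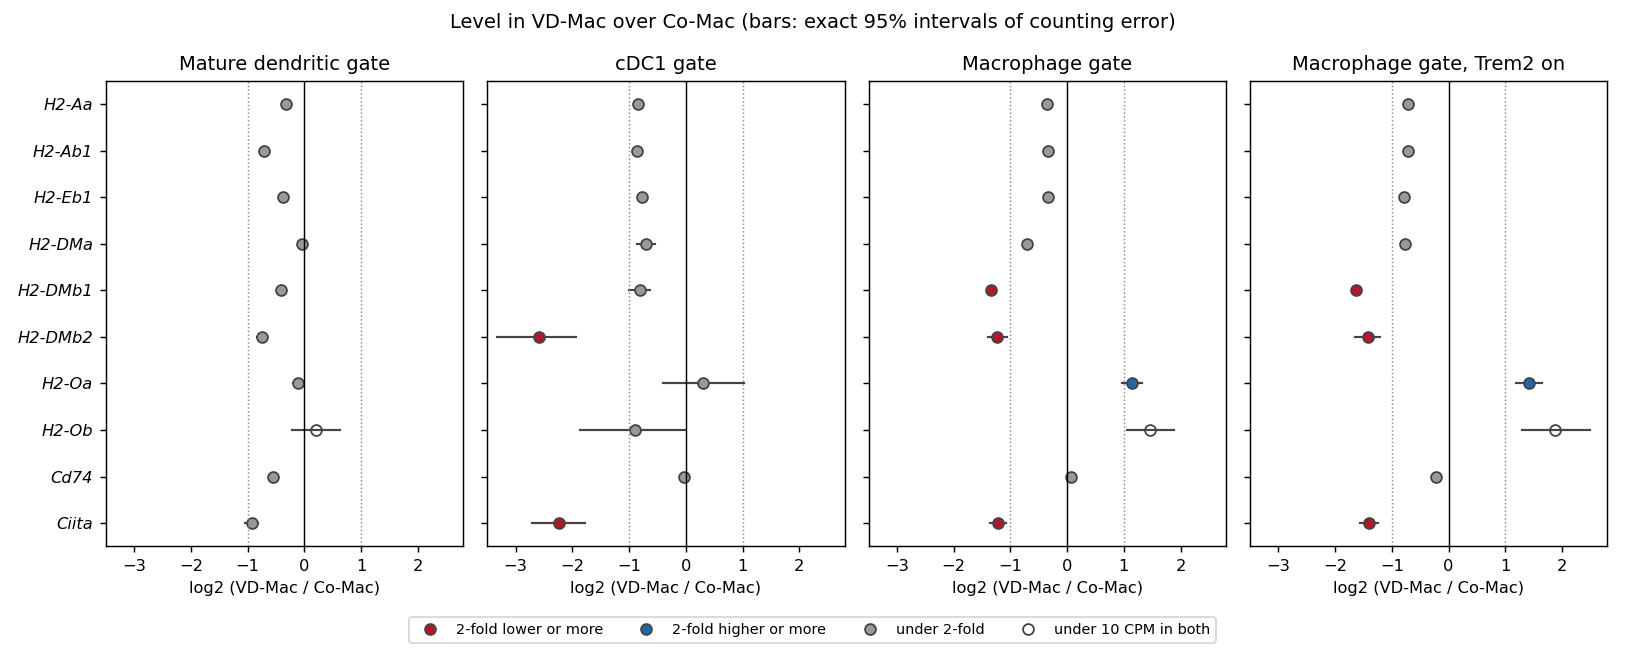
Log2 ratio of the level in VD-Mac to that in Co-Mac for each member in 4 gates, with exact 95% intervals of counting error. Dotted lines mark 2-fold: Ciita lay beyond it in 3 of the 4 gates (−0.93 in the mature gate), and the DM beta genes lay further left than the classical genes in both macrophage panels.

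Per cell, the spread of class II was wide. In cells with at least 2000 UMIs, the 3 classical genes together had a median of 37.9 UMIs per 10000 in the mature dendritic gate of Co-Mac, with quartiles of 18.5 and 63.0. It was 30.3 (16.1 to 47.6) in that of VD-Mac. In *Trem2*-on macrophage-like cells the median was 16.2 in Co-Mac (quartiles 1.30 and 44.7) and 4.51 in VD-Mac (0.597 and 26.1). The share of these cells with no classical UMI, without thinning, was 10.8% and 19.4%, at median depths of 22006 and 16806 UMIs. After thinning to 2000 UMIs, 58.2% (54.9 to 61.5) of them in Co-Mac and 43.5% (40.7 to 46.3) in VD-Mac had an *H2-Aa* UMI. The upper quartile of Co-Mac passed the mature dendritic median, so these cells ranged from none to dendritic levels. The cDC1 median was 170 in Co-Mac, 65.1 in VD-Mac and 260 in hSTSG, and the quartiles of the cultures (146 to 197, and 37.4 to 118) did not overlap. Between the cultures the transcription factor *Irf8* fell in this gate from 1035 to 318 CPM and *Irf4* rose from 15.6 to 50.1. The dendritic marker *Batf3* rose from 57.5 to 114.5 CPM, and *Flt3* fell from 46.8 to 14.3. Of the genes the gate rested on, *Clec9a* stood at 124 and 126 CPM, *Itgae* at 374 and 325, and *Wdfy4* at 303 and 223. Which cells the gate takes in can thus differ between the cultures for every result of this gate, and this was not tested.

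**Figure D3:**
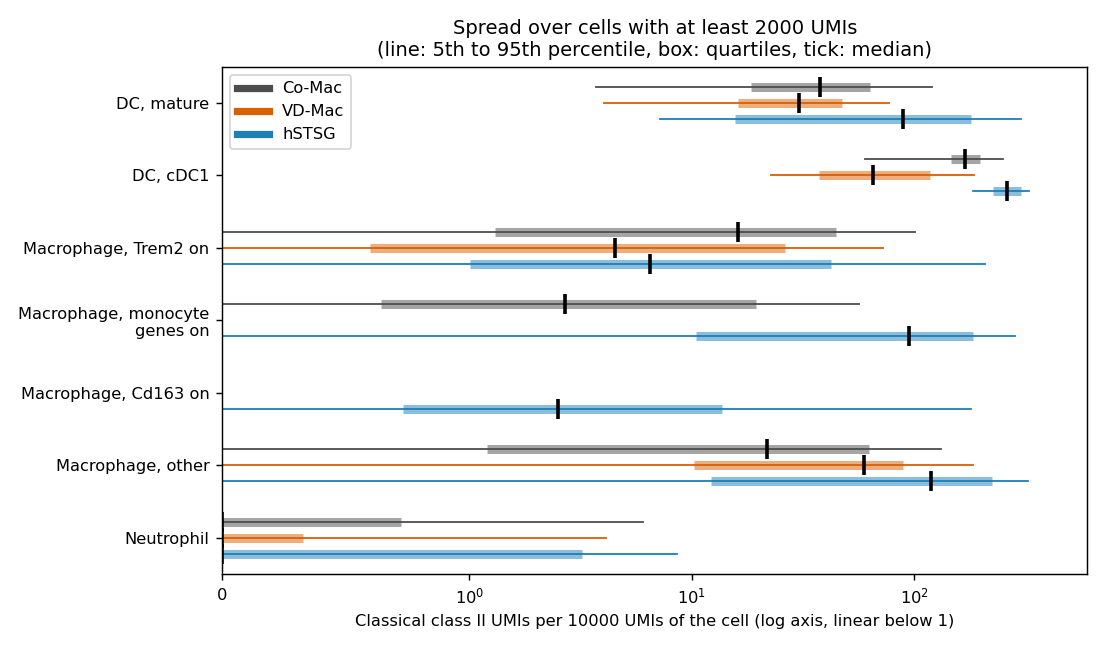
Classical class II UMIs (H2-Aa, H2-Ab1 and H2-Eb1) per 10000 UMIs of each cell, by gate and library, as 5th to 95th percentile (line), quartiles (box) and median (tick); the axis is linear below 1 and log above. The cDC1 gate is highest in each library, and macrophage-like cells with Trem2 on run from 0 to 101 in Co-Mac and to 72.7 in VD-Mac; gates with few cells are not drawn.

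*Cd74*, the invariant chain (chromosome 18, GRCm38), stood at 10622 CPM in the mature dendritic gate of Co-Mac, 7231 in that of VD-Mac and 8286 in that of hSTSG. The cDC1 gate held 15032, 14759 and 18072 CPM, and the macrophage gate 4965, 5177 and 4292 CPM. VD-Mac was therefore lower in the mature gate (log2 ratio −0.55, −0.56 to −0.55) and near Co-Mac in the other gates (−0.03 and 0.06). The sign in the macrophage gate depended on its makeup, at −0.23 in *Trem2*-on cells, −0.17 in cells that were not cycling and 0.34 in cycling cells. For each 100 classical UMIs, *Cd74* had 98.1 in the cDC1 gate of Co-Mac and 171 in that of VD-Mac, and 191 and 253 in the macrophage gate. It moved the other way in the mature gate, from 237 to 214. In the mature, cDC1 and macrophage gates of the graft the ratio was 80.6, 67.3 and 81.6, below that of the same gate in both cultures.

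The DM genes encode the peptide exchanger, with *H2-DMa* for its alpha chain and *H2-DMb1* and *H2-DMb2* as close copies for its beta chain. Reads of such copies can be split or lost, so the values of each beta gene are uncertain. In the mature dendritic gate *H2-DMa* stood at 185 CPM in Co-Mac, 181 in VD-Mac and 131 in hSTSG. The cDC1 gate held 1053, 647 and 584 CPM. The macrophage gate held 532, 326 and 181 CPM. Of these 3 gates the mature dendritic one thus had the least *H2-DMa* in each library, whereas *H2-Aa* was lowest in the macrophage gate. Its level in the neutrophil gate of the cultures, 175 and 141 CPM, was close to that of mature dendritic-like cells, and there *H2-DMa* had 122 and 238 UMIs for each 100 of *H2-Aa*, against 9.63 and 11.8 in the mature dendritic gate. In the graft the neutrophil gate held *H2-DMa* at 3.38 CPM (5 UMIs).

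*H2-DMb1* stood at 62.7, 47.1 and 58.6 CPM in the mature dendritic gate of Co-Mac, VD-Mac and hSTSG. The cDC1 gate held 780.3, 444 and 469 CPM. Macrophage-like cells held 386, 152 and 166 CPM, so the step from the mature dendritic gate to these gates was larger for it than for *H2-DMa* in each library. *H2-DMb2* was spread otherwise: 56.8, 33.8 and 74.4 CPM in the mature gate, 181, 30.1 and 192 in the cDC1 gate, and 35.5, 15.2 and 5.14 in the macrophage gate. For each 100 *H2-DMb1* UMIs there were 90.6 *H2-DMb2* UMIs in the mature gate of Co-Mac, 23.2 in its cDC1 gate and 9.19 in its macrophage gate. In VD-Mac these were 71.7, 6.77 (4.13 to 10.5) and 9.99 (8.96 to 11.1), and in the graft 127, 41.0 and 3.09. Of the mature, cDC1 and macrophage gates, the mature one thus had the most *H2-DMb2* for its *H2-DMb1* in each library. The cDC1 gate lay above the macrophage gate in Co-Mac and the graft but not in VD-Mac.

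After VD3 the DM beta genes fell in the macrophage gate, *H2-DMb1* by 1.35 on the log2 scale (−1.40 to −1.30) and *H2-DMb2* by 1.23 (−1.40 to −1.06), and *H2-DMa* was lower at −0.71. In *Trem2*-on cells these ratios were −1.63, −1.42 and −0.76, and with *Ciita* 3 of 9 members were called lower, where 5.64% of 7746 genes were, and 1 higher, *H2-Oa*, where 4% were. Including *Ciita*, 3 of the 9 members tested in the whole macrophage gate were called lower, where 5.51% of all genes were. Over all kept cells 2 of 9 were called lower, *H2-DMb1* and *Ciita*, where 4.63% of 7732 genes were, and 0 higher, where 2.16% were. In the mature dendritic gate the ratios were −0.41, −0.75 and −0.04, and 0 of 9 members were called lower, where 2.93% of 6833 genes were, or higher, where 2.18% were. *H2-DMb2* fell in the cDC1 gate by 2.59 (−3.32 to −1.94, from 186 UMIs to 21) and *H2-DMa* and *H2-DMb1* were at −0.70 and −0.81. There 2 of 10 members were called lower, *H2-DMb2* and *Ciita*, where 10.4% of 7773 genes were, and 0 higher, where 9.65% were, in a gate of 66 and 56 cells. In these cells *Irf8* fell from 1035 to 318 CPM and *Irf4* rose from 15.6 to 50.1, while *Batf3* rose from 57.5 to 114.5 and *Clec9a* stood at 124 and 126. Whether the gate took in the same kind of cell in both cultures was not tested.

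The peptide-loading genes were set against the classical genes by UMIs of the same cells, a ratio that library totals do not touch. The 3 DM genes had 6.80 UMIs (6.68 to 6.92) for each 100 classical UMIs in the mature dendritic gate of Co-Mac. The cDC1 gate held 13.1 (12.6 to 13.8) and the macrophage gate 36.7 (36.2 to 37.1). In VD-Mac the same gates held 7.75, 12.98 and 24.1, so the order of the gates was the same and the range between them smaller. The ratio moved by 0.19 on the log2 scale in the mature gate (0.16 to 0.22), by −0.02 in the cDC1 gate (−0.15 to 0.11) and by −0.61 in the macrophage gate (−0.64 to −0.58). Over the whole dendritic gate it moved by 0.09, a direction that turned, to −0.11, with cells of 2 gates kept. The fall in the macrophage gate kept its direction in every alternative run, but its size did not: it was −0.38 in *Trem2*-on cells, −0.21 with a mitochondrial limit of 5%, −0.99 in cycling cells and −0.36 with *H2-DMa* alone. In *Trem2*-on cells with *H2-DMa* alone it was −0.03 (−0.08 to 0.01), while *H2-DMb1* and *H2-DMb2* were lower there relative to the classical genes. In the neutrophil gate DM had 56.9 and 108 UMIs for each 100 classical, against 18.8 and 12.8 over all kept cells of Co-Mac and VD-Mac. Whether the neutrophil level of DM is free RNA was not tested. A run with that level subtracted therefore cannot show how far free RNA bears on this ratio.

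In the graft the DM genes had 2.57 UMIs (2.12 to 3.08) for each 100 classical UMIs in the mature dendritic gate, 4.64 in the cDC1 gate and 6.71 (6.50 to 6.92) in the macrophage gate. Each lay below the same gate of both cultures. Among the macrophage-like groups of the graft the ratio was 8.16 with *Cd163* on, 7.49 with *Trem2* on, 6.89 with monocyte genes on and 5.57 in cells with none of these on. The graft and the cultures differ in tissue, preparation and depth, which cannot be told apart here.

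**Figure D4:**
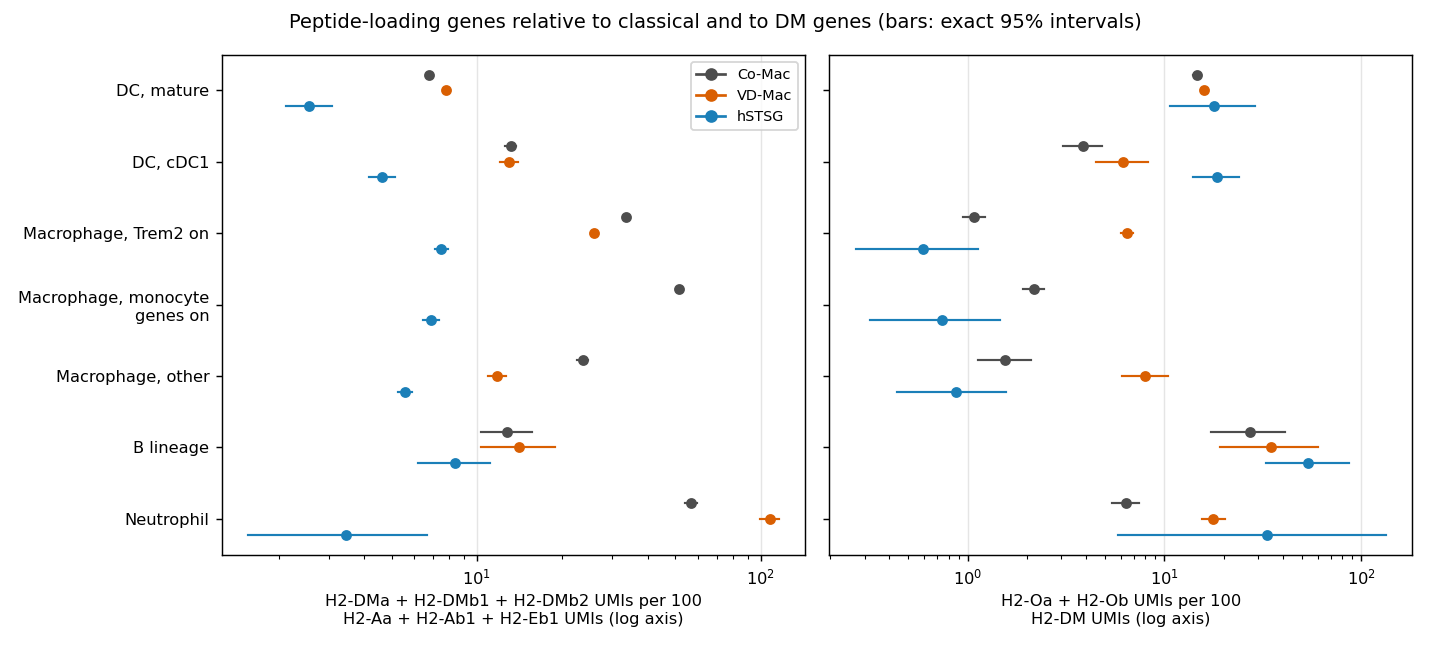
UMIs of the DM genes for each 100 classical UMIs (left) and of the DO genes for each 100 DM UMIs (right), log axes, by gate and library, with exact 95% intervals of counting error. DM to classical is lowest in the mature dendritic gate of each library, and DO to DM is higher in that gate than in the macrophage gates.

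The DO genes encode the restrainer of DM, known from B cells and some dendritic cells. *H2-Oa* stood at 42.8 CPM in the mature dendritic gate of Co-Mac, 39.7 in that of VD-Mac and 31.6 in that of hSTSG. The macrophage gate held 12.2, 26.8 and 1.57 CPM, and the neutrophil gate 15.1, 30.4 and 0.676 CPM. *H2-Oa* rose in the macrophage gate after VD3, with a log2 ratio of 1.14 (0.97 to 1.31), the 1 member of 9 called higher where 3.6% of genes were. It kept this direction in the 15 alternatives that gave a value but stayed past 2-fold in 13, and was at 0.77 with a mitochondrial limit of 5% and at 0.96 in cycling cells. With the neutrophil level subtracted nothing was left to compare. In the dendritic gate as a whole *H2-Oa* stood at 42.0 and 39.6 CPM, a log2 ratio of −0.08 (−0.17 to 0.00). The ratio became −1.54 with the neutrophil level subtracted, so how *H2-Oa* moved there depends on that subtraction. It also rose in the neutrophil gate, by 1.00 (0.71 to 1.30). The macrophage level was not above that of the neutrophil gate in either culture. The log2 ratios were −0.31 (−0.58 to −0.05) in Co-Mac and −0.18 (−0.39 to 0.03) in VD-Mac. For each 100 *Cd74* UMIs, *H2-Oa* had 2.10 and 5.77 in the neutrophil gate of Co-Mac and VD-Mac, against 0.370 and 0.597 over all kept cells. Whether the neutrophil level is free RNA was not tested, so the share of free RNA in the macrophage level was not separated. The 80 macrophage-like cells of VD-Mac with neither *Trem2*, *Cd163* nor monocyte genes on held *H2-Oa* at 60.0 CPM (44.6 to 79.1), above the neutrophil gate, and the 152 of Co-Mac at 10.9. The 1287 *Trem2*-on cells of VD-Mac held it at 25.65 CPM, not above the neutrophil gate. *Cd74* stood at 13013 CPM in those 80 cells, against 4907 in the *Trem2*-on cells. It stood at 14137 CPM in dendritic-like cells of VD-Mac that were neither mature nor cDC1. Which kind of cell the 80 are was not tested. The share of cells with an *H2-Oa* UMI, after each cell was thinned to 2000 UMIs, was 1.96% (1.33 to 2.79) and 4.54% (3.48 to 5.81) in the macrophage gate and 3.43% (2.19 to 5.11) and 3.69% (2.54 to 5.17) in the neutrophil gate. Without thinning it was 21.8% and 31.6% against 14.4% and 15.7%. The median depth was 22197 and 16474 UMIs in the macrophage and 7429 and 4527 in the neutrophil gate, and no order of these gates is read from the shares. In the dendritic gate the thinned share was 7.99% and 7.70%, above the neutrophil gate.

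*H2-Ob* was scarce in the cultures, at 1.85 and 2.13 CPM in the mature dendritic gate and 1.98 and 5.47 in the macrophage gate, under the 10 CPM needed for a call. It was found in the cDC1 gate, at 40.0, 21.5 and 105 CPM in Co-Mac, VD-Mac and hSTSG, from 41, 15 and 31 UMIs. The B lineage gate, of 15, 13 and 18 cells, held 110, 100.2 and 74.4 CPM. The same gate held *H2-Oa* at 102, 125 and 24.8 CPM, from 14, 10 and 7 UMIs, so in the cultures both genes were higher in the B lineage gate than in the mature dendritic gate. For each 100 DM UMIs the DO genes had 14.6 in the mature gate of Co-Mac, 3.87 in its cDC1 gate, 1.49 in its macrophage gate and 27.1 in its B lineage gate. In VD-Mac these were 16.0, 6.13, 6.55 and 34.6, so the macrophage gate no longer lay below the cDC1 gate. The ratio moved by 2.14 on the log2 scale in the macrophage gate (1.98 to 2.30), by 0.66 in the cDC1 gate (0.13 to 1.19) and by 0.12 in the mature gate (0.03 to 0.22). In the neutrophil gate it moved by 1.48 (1.18 to 1.77). In the graft the mature gate held 17.9, the cDC1 gate 18.4, the macrophage gate 0.681 (0.456 to 0.98) and the B lineage gate 53.8. In the dendritic gate as a whole the graft was at 14.8.

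*Ciita*, the transactivator, stood at 36.8 CPM in the mature dendritic gate of Co-Mac, 19.3 in that of VD-Mac and 18.0 in that of hSTSG. The cDC1 gate held 301, 64.4 and 16.9 CPM, and the macrophage gate 51.8, 22.2 and 4.80 CPM. *Ciita* was lower in VD-Mac than in Co-Mac in each of these gates, and its log2 ratio was among the 3 lowest of the members in each. Over the whole dendritic gate it fell by 1.16 (−1.26 to −1.06), and *Ciita* was the 1 member of 9 called lower there, where 3.17% of genes were, and 0 were called higher, where 2.07% were. It ranked 158 from the largest fall among 6902 genes. In the mature cells alone the ratio was −0.93, short of 2-fold. Among mature cells with *Aldh1a2* on, an enzyme of retinoic acid synthesis, *Ciita* went from 35.6 to 8.89 CPM, and among those with it off the log2 ratio was −0.84. Cells with *Aldh1a2* on numbered 1008 in Co-Mac and 442 in VD-Mac, and those with it off 1816 and 3123. The makeup of the mature gate thus differed between the cultures, and how far this bears on its results was not tested. *Ciita* fell in the other gates as well. It fell by 1.22 in the macrophage gate (−1.36 to −1.09), by 1.40 in *Trem2*-on cells and, in the cDC1 gate, by 2.23 (−2.71 to −1.77, from 309 UMIs to 45). *Irf8* also fell in the cDC1 gate, from 1035 to 318 CPM, and *Irf4* rose from 15.6 to 50.1, while *Batf3* rose from 57.5 to 114.5 and *Clec9a* stood at 124 and 126. The cells of that gate may therefore differ between the cultures, which was not tested.

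The share of cells with a *Ciita* UMI gave the same direction in the cultures. After thinning it was 7.52% (6.59 to 8.53) and 4.01% (3.40 to 4.69) in the dendritic gate of Co-Mac and VD-Mac, and 8.11% (6.79 to 9.59) and 4.16% (3.15 to 5.39) in the macrophage gate. Without thinning it was 29.5% and 20.1%, and 41.1% and 19.8%. The neutrophil gate held 1.34% and 0.115% after thinning and 3.61% and 0.574% before. This gate, which should lack *Ciita*, had median depths of 7429 and 4527 UMIs, against 14668 and 13608 in the dendritic and 22197 and 16474 in the macrophage gate. Its level of *Ciita* also fell, from 10.5 CPM (109 UMIs) to 0.961 (8 UMIs). With the neutrophil level subtracted, the log2 ratio was −0.85 in the dendritic and −0.96 in the macrophage gate. For each 100 classical UMIs, *Ciita* moved by −0.52 on the log2 scale in the mature gate (−0.63 to −0.41), by −0.88 in the macrophage gate (−1.02 to −0.74) and by −1.40 in the cDC1 gate (−1.85 to −0.95), so it was lower after VD3 relative to the classical genes as well.

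In the graft all members were higher in the dendritic than in the macrophage gate. The log2 ratio was 1.75 for *H2-Aa*, 1.81 for *H2-Ab1*, 2.21 for *H2-Eb1* and 1.73 for *Cd74*. It was 1.02 for *H2-DMa* and 0.90 for *H2-DMb1*, smaller than for the classical genes. It was 4.95 (4.52 to 5.39) for *H2-DMb2*, 5.58 (4.84 to 6.39) for *H2-Oa* and 5.86 (4.86 to 7.00) for *H2-Ob*, resting on 62, 19 and 10 UMIs in the macrophage gate. These 3 genes had the highest ratios of the members. The T cell gate, which should lack them, held *H2-Oa* and *H2-Ob* at 2.97 and 1.78 CPM from 5 and 3 UMIs, too few to tell the macrophage level from background. In Co-Mac the same comparison gave 1.11 for *H2-Aa*, −0.07 for *H2-Ab1*, −1.32 for *H2-DMa*, −2.18 for *H2-DMb1* and 1.79 for *H2-Oa*, so in the culture *H2-DMa* and *H2-DMb1* had the higher CPM in the macrophage gate.

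The macrophage-like cells of the graft fell into 4 groups, and class II was highest in the 205 cells with neither *Trem2*, *Cd163* nor monocyte genes on and in the 139 with monocyte genes on. *H2-Aa* stood at 5398 CPM in the former and 4093 in the latter, against 1168 in the 364 cells with *Trem2* on and 982 in the 147 with *Cd163* on, a scavenger receptor of resident macrophages. *Cd74* stood at 9475, 8514, 2742 and 2222 CPM in the same order, and *H2-DMa* at 367, 368, 118 and 106. The first 2 groups were thus above the other 2 for each of these genes. Median depths were 6007 and 10649 UMIs in the first 2 groups and 15207 and 11644 in the other 2. A marker can be missed in a shallow cell, and whether some of the 205 cells belong to another group was not tested. *Ciita* stood at 7.91 CPM (13 UMIs) in the cells with none of these on, 18.5 (28 UMIs) with monocyte genes, 2.47 (17 UMIs) with *Trem2* and 0 UMIs with *Cd163*, which allows up to 1.47 CPM by 3 counts (exact upper limit 1.80). In the monocyte-gene cells *H2-Aa* was near its level in the mature dendritic gate (4116 CPM), while *H2-Oa* was at 2.65 against 31.6 CPM. For *Ciita* the mature gate, at 18.0 CPM, rests on 8 UMIs (95% interval 7.79 to 35.6), so nearness to it cannot be judged at this depth. In Co-Mac the order of monocyte-gene and *Trem2*-on cells was the reverse for the classical genes, *Cd74* and *H2-DMb1*. *H2-Aa* stood at 578 CPM in the monocyte-gene cells and 1095 in the *Trem2*-on cells. *H2-DMa* was near equal there, at 529 and 540 CPM, and *Ciita* had a log2 ratio of −0.17. *H2-DMb2*, *H2-Oa* and *H2-Ob* were higher in the monocyte-gene cells, with log2 ratios of 0.50, 0.73 and 0.74. The T cell gate, which should lack class II in mice, held *H2-Aa* at 112 CPM and *Cd74* at 310.5. After thinning, 0 of its 254 cells had a *Ciita* UMI, which allows up to 1.18% by 3 counts (exact upper limit 1.44%). This limits the share with a UMI at the thinned depth, not the share that expresses the gene. The dendritic gate had a UMI in 2 of 74 cells and the macrophage gate in 0.878% of 797, so the thinned shares did not separate these gates. Unthinned, the T cell, dendritic and macrophage gates held 0.391%, 22.4% and 4.56%, with 5561, 14132 and 11430 UMIs in their median cells.

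**Figure D5:**
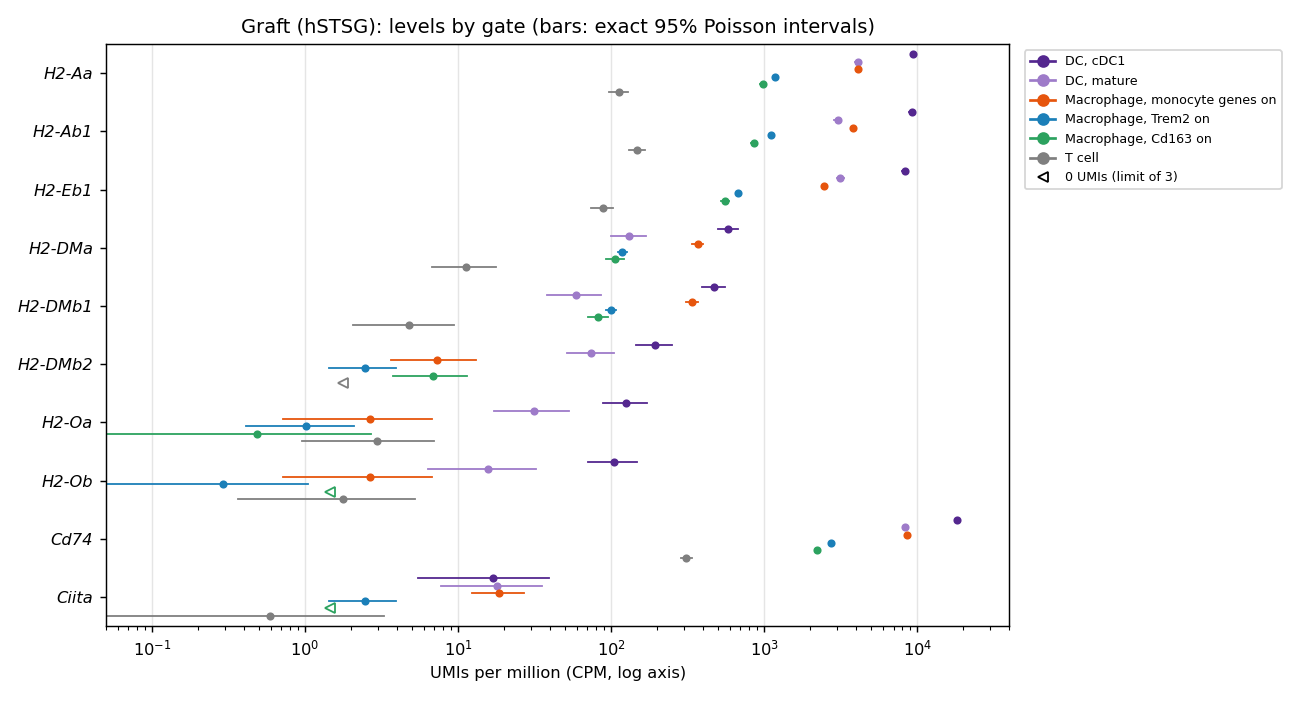
Level of each member (CPM, log axis) in 6 gates of the graft, with exact 95% Poisson intervals; open triangles mark 0 UMIs, drawn at the limit of 3 UMIs. H2-DMb2, H2-Oa and H2-Ob separate the dendritic from the macrophage gates, and the macrophage-like cells with monocyte genes on have levels of H2-Aa and Cd74 near those of the mature dendritic gate; the 205 macrophage-like cells with neither Trem2, Cd163 nor monocyte genes on are not drawn.

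Other genes of the pathway were followed by a list. Of 25 listed genes (promoter factors, inducers of *Ciita* and their receptor, proteases and turnover genes), 19 were tested in the dendritic gate: 0 were called lower, where 3.17% of all genes were, and 1 higher, where 2.07% were. The latter was the interferon gamma receptor *Ifngr1*, from 23.4 to 55.04 CPM. The 6 that were not tested stayed under 10 CPM in both libraries, among them *March1*, a ligase of class II turnover (8.45 and 4.19 CPM), and *H2-Eb2*, another class II beta gene (3.88 and 1.91 CPM). The median log2 ratio of the 19 tested was −0.05, against −0.53 for the 9 members tested and 0.02 for all genes. Of 20 tested in the macrophage gate 0 were called lower, where 5.51% of all genes were, and 3 higher, where 3.6% were: *Ifngr1* rose from 67.8 to 162 CPM, *Irf1*, a transcription factor downstream of interferons, from 11.3 to 25.9, and *Irf8*, a factor of the monocyte and dendritic lineages, from 51.9 to 132. The median was 0.02 for this list and −0.35 for the members. Of the promoter factors, *Rfxap*, *Nfya*, *Nfyb* and *Creb1* were tested in both gates and *Nfyc* in the macrophage gate, with 0 called, while *Rfx5* and *Rfxank* were too low to be tested in either. In the mature cells *Ctss*, the protease that degrades the invariant chain, fell from 817 to 408 CPM, just past 2-fold, where 2.93% of all genes were called lower. *Irf8* rose there from 240 to 487 CPM and *Ifngr1* from 20.0 to 48.7, where 2.18% of all genes were called higher. No other gene of the list was called in the mature cells. Of 21 genes of the list tested in the cDC1 gate 3 were called lower, where 10.4% of all genes were, and 5 higher, where 9.65% were. Those called lower were *Irf8* (1035 to 318 CPM), the protease gene *Sppl2a* (152 to 70.1 CPM) and the promoter factor *Nfyc* (14 UMIs to 4, with an interval of −3.31 to 0.42 that includes no difference). Those called higher were *Ifngr1* (132 to 356 CPM), the interferon regulatory factors *Irf1* (11.7 to 38.6) and *Irf4* (15.6 to 50.1), and the proteases *Ctsl* (25.4 to 68.7) and *Lgmn* (17.6 to 73.0). For comparison, 11 genes of MHC class I had a median of 0.15 in the dendritic gate with 0 called. Of these, 10 were tested in the macrophage gate with a median of 0.71, and *H2-K1* (a class I heavy chain), *Psmb9* (a proteasome subunit) and *Tap2* (a peptide transporter) rose, the first from 497 to 1103 CPM.

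The members did not follow 1 pattern over the gates. Over 29 gates of the 3 libraries, on log2(CPM + 1), Pearson's r with the mean of the classical genes was 0.96 for *Cd74*, 0.83 for *H2-DMa* and *H2-DMb2*, 0.79 for *H2-DMb1*, 0.74 for *Ciita*, 0.52 for *H2-Ob* and 0.34 for *H2-Oa*. These gates share libraries and differ in depth, so the values are a description. *Ciita* was most like *H2-DMb2* among the members (0.88) and *Map4k1* (0.82) and *Kmo* (0.81) among 7242 other genes, followed by *Rnase6*, *Mtmr4* and *Slamf9*. *Kmo* was a marker of the dendritic gate. The genes most like the classical mean were the costimulator *Cd86* (0.90) and *Ly86* (0.87), followed by *Wdr91*, *Gdi2*, *Ppfibp2*, *Plekho1*, *Irf8* and *Grk3*.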

How the data were processed

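The authors deposited raw UMI counts per mouse gene and barcode from 10x Chromium 3′ v3 libraries, not normalized, with Cell Ranger 3.1.0 in the file headers. The submitters' notes name mm9 and Seurat 3.1.1 and the study's methods name a human genome, while the files hold mouse gene IDs without coordinates. Coordinates therefore come from GENCODE M21 (GRCm38) by gene ID, with 10 of 10 matched. Antibody rows were left out. Barcodes with at least 300 genes, under 100000 UMIs and under 10% mitochondrial UMIs were kept (92.3%, 90.1% and 81.1%), and libraries shared 15, 3 and 6 barcodes.

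The members, lists and gates were chosen with earlier results of these data known. Gates needed 3 of 15 dendritic, 4 of 13 macrophage or 3 of 16 neutrophil markers, numbers settled after the cells were seen. At these limits stood 98, 165 and 20 dendritic and 368, 331 and 60 macrophage cells. Cells passing several gates (604, 567 and 104), which can be doublets, and cells passing none (1292, 2062 and 188) were left out, and no doublet caller was run. Counts were summed over cells and divided by total UMIs. Intervals are exact at 95% (Poisson, Clopper-Pearson or conditional binomial), except that for a change of a ratio a normal approximation on the log scale was used. Shares were taken after thinning to 2000 UMIs. The genes named were all members, listed genes called in the dendritic or macrophage gate (with *Ctss*, *Irf8* and other listed genes in further gates chosen after their values were seen), the 8 and 5 genes most like the classical mean and *Ciita* with at least 50 CPM in a gate, *Cyp24a1*, and gate markers. *Ifi30* and *H2-Ea* of the pathway list were not analysed here. The calculation was tested on simulated data. Alternatives covered filters, scaling (edgeR 4.0.16 in R 4.3.3), gates, doublets, depth, subtraction of the neutrophil level for free RNA, and splits of the gates. Whether that level is free RNA was not tested. Python 3.11.15, numpy 2.4.6, scipy 1.17.1, pandas 2.3.3 and matplotlib 3.10.9 were used.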

Additional observations from a re-analysis of the deposited data

Results flagged for a closer look

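*Cd74* moved in opposite directions in the 2 main gates of the cultures, with a log2 ratio of VD-Mac to Co-Mac of −0.53 in the dendritic gate and 0.061 in the macrophage gate. The difference was not tested, since each culture was 1 library. In the macrophage gate 11 of 16 alternatives kept the sign, over a range of −0.28 to 0.34, while in the dendritic gate 14 of 14 did.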

How the results depend on the processing

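No paired analysis was possible because each group was 1 library. Leaving out cells that pass 2 gates was already part of the main gates, so keeping them was added, together with the splits of the gates, after seeing the data. The change of the DM to classical ratio in the dendritic gate, 0.09 on the log2 scale, was 0.0030 with a mitochondrial limit of 5%, 0.033 with stricter gates, 0.18 thinned, 0.28 with the neutrophil level subtracted, 0.29 with *H2-DMa* alone, 0.15 both with cells near a second gate left out and in the mature cells with *Aldh1a2* on or off, and −0.11 with cells of 2 gates kept, so its direction did not hold. In the macrophage gate, −0.61, it was −0.21, −0.69, −0.45, −0.96, −0.36, −0.53 and −0.75 under the same settings without the *Aldh1a2* split, and −0.99 in cycling, −0.28 in other, −0.38 in *Trem2*-on cells and −0.56 without cells that had a cDC1 gene on. In the graft the classical genes, dendritic over macrophage, were at 1.80 with the 5% limit, 1.84 with cells of 2 gates kept and 1.86 with stricter gates, and the DM genes at 1.12 with stricter gates. Without a minimum level 4836 and 4868 genes were called in the dendritic and macrophage gates, in place of 362 and 709. The count of members called lower in the dendritic gate, 1, was 0 as a mean over cells, where 2.62% of genes were, 0 in mature cells with *Aldh1a2* off, where 2.97% were, and 3 (*H2-Ab1*, *H2-DMb2* and *Ciita*) in those with it on, where 3.62% were. Shares of cells with a *Ciita* UMI without thinning were 29.5%, 20.1% and 22.4% in the dendritic and 41.1%, 19.8% and 4.56% in the macrophage gate of Co-Mac, VD-Mac and hSTSG. *Ciita* kept its direction in all alternatives, at −2.003 to −0.84 in the dendritic and −1.97 to −0.96 in the macrophage gate, and *H2-DMb1* stayed past 2-fold in 16 of 16 in the macrophage gate. *H2-DMb2* stayed past 2-fold there in 15 of 16, with a highest log2 ratio of −0.91. *H2-Aa*, *H2-Ab1* and *H2-Eb1* kept their direction in 15 of 16 there. Depth limits *H2-Ob* and *Ciita* in the graft.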

Other observations

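The gate of mast cell or basophil markers, 14 cells of Co-Mac and 21 of VD-Mac, held *H2-Oa* at 120 CPM (19 UMIs) and 88.8 CPM (17 UMIs), above the mature dendritic gate of the same libraries, with *H2-Aa* at 12.6 and 10.4 CPM (2 UMIs each) and *Cd74* at 81.9 and 41.8. *H2-Eb2*, another class II beta gene, had 18 UMIs in the mature dendritic gate of the graft (40.6 CPM) and 1 in its cDC1 gate (3.38 CPM).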
